A study of Homo sapiens with 9 samples.

Results

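The 10 genes described here encode the angiomotins (AMOT, AMOTL1, and AMOTL2), the Hippo kinases LATS1 and LATS2, the co-activators YAP1 and WWTR1 (the gene of TAZ), their DNA-binding partner TEAD1, and CTGF and CYR61, 2 genes that YAP switches on. They were taken by symbol from the deposited table, and all 10 symbols were found among its 14839 genes. The set was chosen by measured values of these libraries, the fall of AMOT with miR-16 and the swing of CTGF between the mimics, so the differences between the mimics given below describe these genes and test nothing.

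The libraries came from MP41, a uveal melanoma cell line with a mutated GNA11. Cells were transfected by lipofection with a synthetic miR-16, or with the control mimic miR-CTR, at 66 nM and collected 6, 12, 24, or 48 h later. The remaining library, at 0 h, is the starting time point of the study. It was taken to come from cells collected before transfection and is called untransfected here, although the labels list it under the control mimic. PolyA RNA was sequenced from 1 library for each of the 9 conditions, all from the same line in medium with 20% serum, so no replicate shows how far a repeated culture would differ and no p-value was computed. The values are read numbers per gene, normalized and on a log2 scale. Between 20280000 and 27370000 reads per library were recovered from them, and the library medians lay between 9.13 and 9.17. The logFC is the miR-16 value minus the miR-CTR value at the same time, the early logFC averages 6 and 12 h, and the late logFC averages 24 and 48 h. Genes were called higher or lower where a logFC passed 0.5 in size. Intervals are 95% intervals for the counting of reads and hold no variation between cultures. In such bulk RNA, fewer cells with a transcript and less transcript per cell cannot be told apart.

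The Hippo pathway restrains YAP and TAZ. The kinases STK3 and STK4 activate LATS1 and LATS2, which phosphorylate YAP and TAZ, and the phosphorylated proteins are kept in the cytoplasm or degraded. Unphosphorylated YAP and TAZ enter the nucleus, bind TEAD factors, and turn on genes such as CTGF and CYR61. Angiomotins are scaffold proteins of cell junctions and actin filaments that can hold YAP outside the nucleus and can promote its phosphorylation by LATS. In uveal melanoma, mutated GNAQ or GNA11 is known to activate YAP through actin, with release of YAP from AMOT. A microRNA usually lowers an mRNA whose 3′UTR pairs with its seed, bases 2 to 8 from its 5′ end.

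The seeds of both mimics, in capitals below, define the sites looked for in the 10 genes. The miR-16 sequence is the RefSeq mature form. The control sequence is the one listed by the study for its pull-down control, under a label that appears swapped with that of miR-16, and it was assumed to be that of the transfected miR-CTR.
hsa-miR-16-5p: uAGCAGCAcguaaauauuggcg
control: uUGUACUAcacaaaaguacug

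In the longest coding-transcript 3′UTR of each gene (GENCODE version 29 on GRCh38), 6 of the 10 genes had a miR-16 seed match of 7 bases or more. The match is TGCTGCT (7mer-m8), TGCTGCTA (8mer), or GCTGCTA (7mer-A1). These are the matches in the genes that carry the results, given as DNA from 5′ to 3′ on the strand of the gene, with the match in capitals.
AMOT: tccttttaaTGCTGCTtttgagctt
AMOTL1: cctctccttTGCTGCTtaaacttgt
LATS1: tatttttgaTGCTGCTtccaatttt
LATS1, distal pair: agacattgcTGCTGCTgttacccaa
LATS2: gacaaatcaTGCTGCTgttattttc
YAP1, proximal: cttgtccatTGCTGCTgttaatgta
YAP1, distal: ctggcaaaaGCTGCTAtgaaaagcc
TEAD1, 8mer: gtccccgccTGCTGCTAgtctgtctg

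The matches lie at chrX:112775604-112775610 in AMOT, chr11:94876613-94876619 in AMOTL1, chr13:20974538-20974544 in LATS2, and chr6:149660990-149660996 in LATS1. The distal pair of LATS1 consists of 2 overlapping matches 3 bases apart in a run of TGC repeats, and the line above is centered on the one at chr6:149658579-149658585. The YAP1 matches lie at chr11:102230102-102230108 and chr11:102231797-102231803, and the TEAD1 8mer at chr11:12942384-12942391, beside 2 further 7mer-m8 matches of that 3′UTR. AMOTL2 had only 2 matches of 6 bases (GCTGCT), and WWTR1, CTGF, and CYR61 had none of any of these kinds. Among the 11584 genes of the table with a 3′UTR, 29.2% had a match of 7 bases or more. The median 3′UTR was 3526 bases long in the 10 genes and 1420 bases over all of these genes.

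AMOT encodes the founding member of the angiomotin family and lies on the reverse strand of chromosome X from 112774503 to 112840815. Its log2 value was 11.04 in untransfected cells. The miR-CTR libraries had 11.11, 11.10, 11.26, and 11.00, in the order 6, 12, 24, and 48 h, and the miR-16 libraries 10.72, 10.32, 10.01, and 9.73. The miR-CTR values stayed close to the 0 h value, each miR-16 value was below the one before it, and the mimics did not overlap. At 48 h AMOT stood at 40.3% of its 0 h level with miR-16 and at 97.3% with miR-CTR. The late logFC was -1.26 (counting interval -1.34 to -1.18), which ranked at place 23 from the lowest among the 14839 genes.

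The other angiomotins are scaffold proteins that share the coiled-coil core and YAP-binding motifs of AMOT. AMOTL1 (chromosome 11, 94706431 to 94876753) was at 11.82 in untransfected cells, between 11.63 and 11.85 with miR-CTR, and between 11.46 and 11.69 with miR-16. These ranges overlapped, and the late logFC of -0.22 (counting interval -0.28 to -0.17) was short of the threshold although the 3′UTR holds a miR-16 match of the same kind as that of AMOT. AMOTL2 (chromosome 3, 134355874 to 134375479) is itself a target of YAP. From 11.18 at 0 h its values went to 11.39, 10.97, 10.97, and 10.58 at 6, 12, 24, and 48 h with miR-16 and to 11.41, 11.14, 10.99, and 10.17 with miR-CTR. Thus AMOTL2 was lower than at 0 h in every library from 12 h on, and the mimics were apart by more than their counting error at 12 h (logFC -0.17) and, in the other direction, at 48 h (logFC 0.41). Its late logFC was 0.20, which is -0.02 when 24 h is taken alone. Of the normalized reads of the 3 angiomotins together, AMOT gave 26.2% at 0 h, between 27.2 and 31.6% with miR-CTR, and 22.0, 19.4, 16.7, and 16.3% at the successive times with miR-16.

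**Figure D1:**
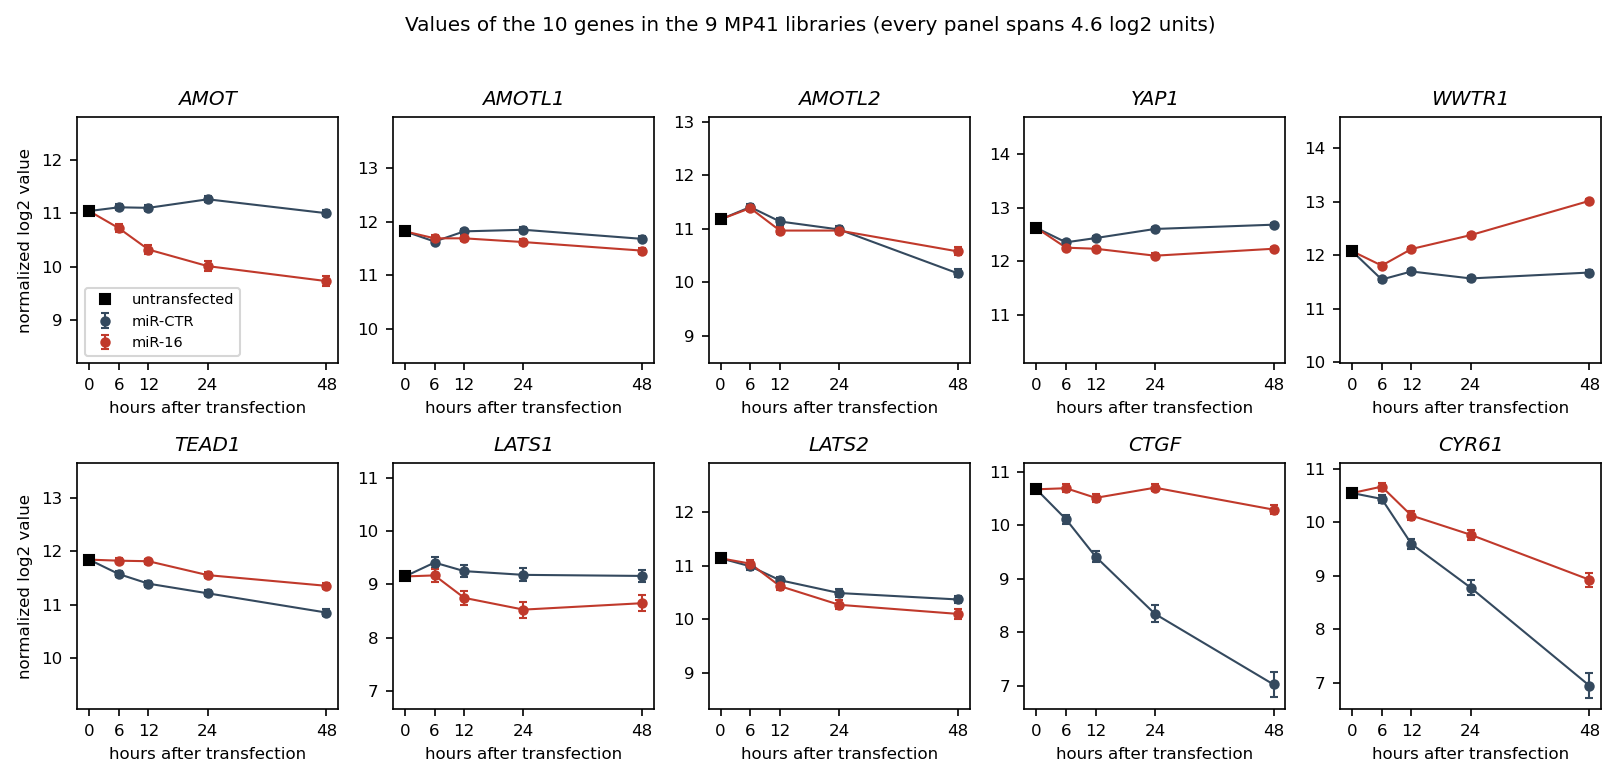
Normalized log2 value of each of the 10 genes (vertical axis) against hours after transfection (horizontal axis), with 1 library per point and bars for the 95% counting interval. Red points are miR-16, dark points miR-CTR, and the black square is the untransfected library. AMOT moves away from a flat control, ending at 9.73 with miR-16 and 11.00 with miR-CTR, whereas for CTGF it is the control that moves, ending at 7.02 against 10.29 with miR-16.

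LATS1 and LATS2 are the kinases that phosphorylate YAP and TAZ. LATS1 (chromosome 6, 149658153 to 149718256) had 9.15 in untransfected cells, then 9.17, 8.75, 8.53, and 8.65 at 6, 12, 24, and 48 h with miR-16 and 9.41, 9.25, 9.18, and 9.16 with miR-CTR. The miR-16 value was the lower at each time, but its 6 h value lay within the range of the miR-CTR values, so the mimics overlapped. LATS1 rested on 351 to 713 reads per library, the fewest of the regulators among the 10 genes. Its late logFC was -0.58 (counting interval -0.71 to -0.45), just past the threshold, so LATS1 was called lower. The interval also holds values short of the threshold.

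LATS2 (chromosome 13, 20973032 to 21061547) is both a kinase of YAP and a target of it. It declined with both mimics, from 11.14 at 0 h to 10.10 at 48 h with miR-16 and to 10.37 with miR-CTR, which is 48.6% and 58.6% of the 0 h level. Its late logFC was -0.24 (counting interval -0.32 to -0.17). The later libraries were therefore below 0 h with either mimic by more than they were apart from each other.

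YAP1 encodes YAP (chromosome 11, 102110461 to 102233423). It had 12.62 at 0 h, 12.25, 12.23, 12.10, and 12.23 at 6, 12, 24, and 48 h with miR-16, and 12.35, 12.43, 12.60, and 12.68 with miR-CTR. Both mimics were below 0 h at 6 h, after which the control values returned to the 0 h level and the miR-16 values did not, and the mimics did not overlap. Its late logFC was -0.47 (counting interval -0.51 to -0.44), just short of the threshold, so YAP1 was not called.

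WWTR1, the gene of TAZ, the paralog of YAP (chromosome 3, 149517235 to 149736714), went the other way. From 12.08 at 0 h it reached 11.81, 12.12, 12.38, and 13.02 at 6, 12, 24, and 48 h with miR-16 and stayed at 11.55, 11.70, 11.57, and 11.68 with miR-CTR. The mimics did not overlap, since the lowest miR-16 value was above the highest miR-CTR value. At 48 h WWTR1 was at 192% of its 0 h level with miR-16 and at 75.8% with miR-CTR. The logFC was larger at each later time, from 0.26 at 6 h to 1.34 at 48 h, a 2.53-fold difference from 7859 and 3845 reads, and the late logFC was 1.08 (counting interval 1.03 to 1.12).

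The balance of the 2 co-activator transcripts therefore differed between the mimics. WWTR1 minus YAP1 was -0.54 in log2 at 0 h, and it went from -0.44 at 6 h through -0.11 and 0.28 to 0.79 at 48 h with miR-16. With miR-CTR it stayed between -1.03 and -0.73. These are differences of the same gene pair between libraries, since reads of unequally long genes do not give their relative amounts.

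TEAD1 encodes the DNA-binding partner of YAP and TAZ (chromosome 11, 12674591 to 12944483). It had 11.84 at 0 h, 11.82, 11.81, 11.55, and 11.35 at 6, 12, 24, and 48 h with miR-16, and 11.57, 11.39, 11.21, and 10.85 with miR-CTR. Both series declined, with miR-16 the higher at each time, and the ranges overlapped. The late logFC was 0.42 (counting interval 0.36 to 0.48). TEAD1 carried 3 miR-16 matches, among them the only 8mer of the 10 genes, and was nevertheless higher with miR-16 than with miR-CTR, although it was below 0 h with both (late change -0.39 and -0.81).

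CTGF encodes a secreted matrix-associated protein of the CCN family and is the most used readout of YAP (chromosome 6, 131948176 to 131951373, reverse strand). In untransfected cells its log2 value was 10.67. With miR-16 it was 10.69, 10.51, 10.70, and 10.29 at 6, 12, 24, and 48 h, and with miR-CTR 10.11, 9.41, 8.34, and 7.02. The miR-16 libraries thus kept near the 0 h value while each miR-CTR library was lower than the one before it. At 48 h, CTGF stood at 76.8% of its 0 h level with miR-16 and at 7.97% with miR-CTR, where 151 reads remained. The difference was 5.13-fold at 24 h and 9.65-fold at 48 h, and the late logFC of 2.82 (counting interval 2.67 to 2.96) ranked at place 4 from the highest. Against the untransfected library alone the late miR-16 value of CTGF was lower, by -0.18. CTGF was thus higher with miR-16 than with miR-CTR, but its late miR-16 mean was not above the 0 h value.

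CYR61, a related secreted CCN protein (chromosome 1, 85580761 to 85583962), ended below 0 h with both mimics and further below it with miR-CTR. It had 10.55 at 0 h, 10.67, 10.13, 9.77, and 8.93 with miR-16, and 10.44, 9.60, 8.78, and 6.95 with miR-CTR. The series overlapped, because the 48 h value with miR-16 lay below the control values at 6 and 12 h. At 48 h 32.5% of the 0 h level was left with miR-16 and 8.25% with miR-CTR. The late logFC was 1.48 (counting interval 1.33 to 1.64), while the late change from 0 h was -1.20 with miR-16 and -2.68 with miR-CTR. CTGF minus CYR61, 0.12 at 0 h, stayed between -0.44 and 0.07 with miR-CTR and went from 0.02 at 6 h to 0.38, 0.93, and 1.36 with miR-16, so the 2 genes moved apart with miR-16 and kept closer together with miR-CTR.

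**Figure D2:**
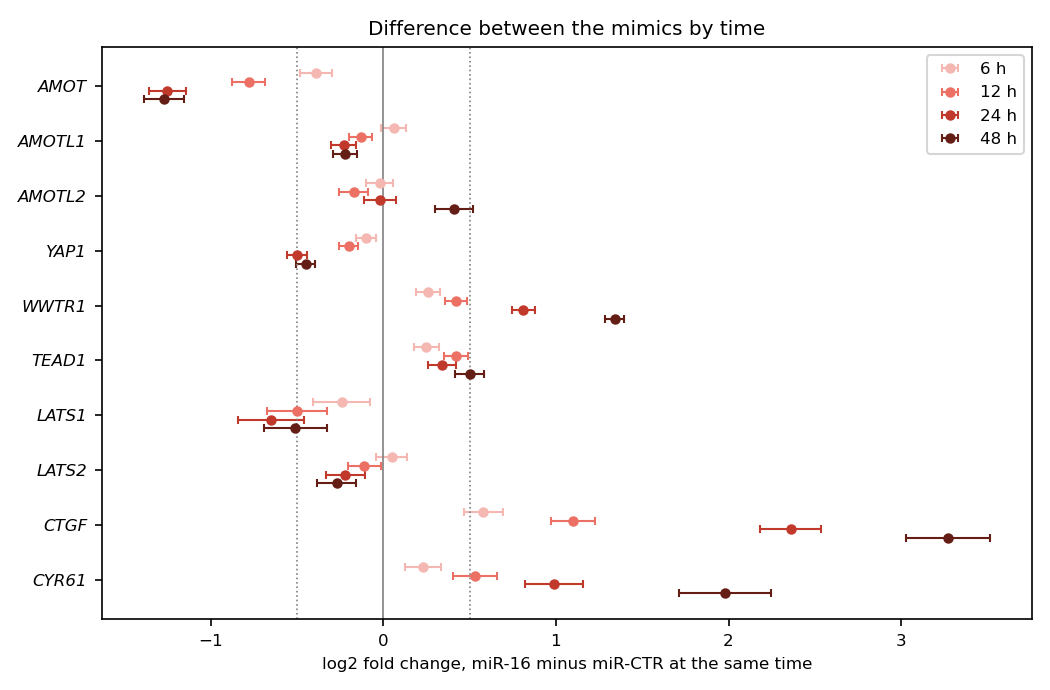
The logFC of each gene (horizontal axis, log2, miR-16 minus miR-CTR at the same time), with darker points for later times, bars for the 95% counting interval, and dotted lines at the threshold of 0.5 in either direction. The points of AMOT lie on the left from -0.39 to -1.27, those of WWTR1, CTGF, and CYR61 spread to the right with time, and those of AMOTL1, AMOTL2, and LATS2 lie within the dotted lines.

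In the late window 3 of the 10 genes were called higher with miR-16 (WWTR1, CTGF, and CYR61) and 2 lower (AMOT and LATS1), where 7.76% of all genes were called higher and 5.73% lower. Nothing is read from these counts, since this contrast chose the genes. The median late logFC of the 10 genes was -0.02, that of all genes 0.005. In the early window CTGF (0.84) was called higher and AMOT (-0.58) lower, where 2.04% and 1.45% of all genes were called. AMOT and CTGF were thus past the threshold by the mean of 6 and 12 h, and WWTR1, CYR61, and LATS1 only in the later window. By single times, CTGF was called higher at 6 h and none of the 10 lower (3.38% and 3.34% of all genes), and CTGF and CYR61 were higher and AMOT lower at 12 h (3.31% and 2.53%). The genes called at the later times taken singly were those of the late window (24 h, 7.24% and 5.26%, and 48 h, 10.4% and 8.96%). The 4 libraries of one mimic did not overlap the 4 of the other for WWTR1 and CTGF, which were higher with miR-16 (3.81% of all genes), and for AMOT and YAP1, which were lower (3.75%).

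The change from 0 h shows with which mimic the values left the 0 h level, and both sets of changes share the same untransfected library. There was no untransfected library at the later times. Time in culture, the transfection, and the mimic therefore cannot be told apart in these changes. With miR-16, WWTR1 was called higher than at 0 h (0.62) and AMOT (-1.17), CYR61 (-1.20), LATS2 (-0.96), and LATS1 (-0.56) lower, where 14.1% of all genes were called higher and 11.7% lower. With miR-CTR none of the 10 was called higher and 5 were called lower, CTGF (-2.99), CYR61 (-2.68), TEAD1 (-0.81), LATS2 (-0.71), and AMOTL2 (-0.60), against 11.0% and 9.79% of all genes. AMOT, LATS1, and YAP1 were within 0.1 of their 0 h value in the late miR-CTR libraries (0.09, 0.02, and 0.02). These 3 genes were thus below the 0 h level in the late miR-16 libraries only, whereas CTGF was far below it in the late miR-CTR libraries. How CTGF would change over the same time without a mimic was not measured.

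Per kilobase of merged exons, on a linear scale of normalized reads, YAP1 was the most abundant of the 10 transcripts in untransfected cells at 1000, followed by CTGF at 696, CYR61 at 610, and WWTR1 at 515. LATS2 (404), AMOTL2 (388), AMOTL1 (360), and TEAD1 (357) were close to each other, AMOT was lower at 248, and LATS1 was the lowest at 65.6. By 48 h WWTR1 was at 987 with miR-16, above YAP1 at 763, while with miR-CTR it was at 390 and YAP1 at 1042. CTGF was at 535 with miR-16 and 55.1 with miR-CTR, the latter below LATS1 at 66.1. The whole gene length was used, so these levels assume that the transcripts in MP41 cells span the annotated exons.

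Some of these reads can belong to neighbors. Exons of other genes overlap 9.97% of the exon bases of YAP1, 9.45% of those of WWTR1 (by the antisense gene WWTR1-AS1), and 8.34% of those of CTGF, and at most 4.94% in the other genes. The strand setting of the read counting was not given in the sources used here, so reads of antisense partners cannot be told apart in these parts.

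The presence of a miR-16 match went with the sign of the late logFC in 9 of the 10 genes, as a description of this chosen set. Values of AMOT and CTGF in this contrast chose the set, so nothing is read from this count or from the medians below. The share of all genes in which match and sign go together was not computed. AMOT, AMOTL1, YAP1, LATS1, and LATS2 had a match and a negative value, and TEAD1 had a match and a positive one. AMOTL2, WWTR1, CTGF, and CYR61 had no match of 7 bases and a positive value. The median late logFC was -0.36 with and 1.28 without a match in the 10 genes. Over all genes with a 3′UTR the medians were -0.085 and 0.015. These signs are those of the difference between the mimics. Against the 0 h library, a different contrast, the late miR-16 value was higher for WWTR1 and lower for the 9 others. The logFC of AMOTL2 was negative at 6, 12, and 24 h (-0.02, -0.17, and -0.02).

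Seed matches of the control sequence are shown because 4 of the 10 genes carried one (CTGF, WWTR1, TEAD1, and LATS2), against 14.7% of the genes with a 3′UTR. The 3′UTRs of the 10 genes were longer (median 3526 bases against 1420), which leaves more room for matches. The match is TAGTACA in the first of these 3′UTR stretches and AGTACAA in the second, in capitals.
CTGF: gaactacatTAGTACAcagcaccag
WWTR1: acttctcaaAGTACAActtttatga

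They lie at chr6:131949032-131949038 and chr3:149517529-149517535 (GRCh38). CTGF, WWTR1, TEAD1, and LATS2 were each lower than at 0 h in the late miR-CTR libraries, by -2.99, -0.46, -0.81, and -0.71. With miR-16 the late changes of these genes were -0.18, 0.62, -0.39, and -0.96, so LATS2 was further below 0 h with miR-16. CYR61 and AMOTL2 carried no control match of 7 bases and were lower with miR-CTR by -2.68 and -0.60. The other genes without one were AMOT, AMOTL1, YAP1, and LATS1 (0.09, -0.055, 0.02, and 0.02). Whether these matches take part in the decline was not tested.

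TEAD factors bind the motif GGAATG, so the promoters of the genes were searched for it on both strands (GGAATG or CATTCC). RefSeq windows of 300 bases, 250 before and 50 after the start of the gene on GRCh38.p14, were at hand for 8 of the 10 genes, those of CYR61 and TEAD1 being not analysed here. The motif was in 4 of the 8 (CTGF, AMOTL2, YAP1, and LATS2) and in 14.0% of all 35116 windows. A gene was counted if any of its windows held the motif, whereas the 14.0% is over single windows, so these shares are not like for like. The stretches with it are shown 5′ to 3′ on the strand of the gene, with the motif in capitals.
CTGF, distal: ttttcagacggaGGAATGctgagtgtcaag
CTGF, proximal: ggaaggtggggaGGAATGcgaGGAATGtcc
AMOTL2: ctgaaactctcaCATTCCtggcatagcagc
YAP1: cgggagtgtgcaGGAATGtagcaacttgca
LATS2: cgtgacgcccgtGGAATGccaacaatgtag

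The CTGF window had 3 copies, in chr6:131951524-131951553 and chr6:131951459-131951488, a number reached by 45 of the 35116 windows (0.128%). The other stretches are chr3:134374499-134374528 (AMOTL2), chr11:102110273-102110302 (YAP1), and chr13:21061560-21061589 (LATS2). Of the 4 genes with the motif, CTGF, AMOTL2, and LATS2 were called lower than at 0 h in the late miR-CTR libraries and YAP1 was not. Of all genes, 9.79% were called lower there. With miR-16 the late changes of CTGF, AMOTL2, LATS2, and YAP1 were -0.18, -0.405, -0.96, and -0.455. The swing of CTGF chose the set, so nothing is read from this count. WWTR1, AMOT, AMOTL1, and LATS1 had no such letters in these windows. A match of letters is a description and not a binding site.

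The other genes of the pathway were listed from general knowledge of it. The 6 genes of the kinase core (STK3, STK4, SAV1, MOB1A, MOB1B, and NF2) were all within the threshold in the late window, between -0.32 and 0.20. Of 12 upstream regulators with a value, WWC3 (0.82) and WWC1 (0.59) were called higher and MAP4K2 (-0.57) lower. WWC1, also called KIBRA, is a scaffold that works with NF2 in activating LATS, and MAP4K2 is a kinase that can act on LATS in parallel to STK3 and STK4.

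In the STRIPAK complex, a phosphatase assembly that counteracts STK3 and STK4, SLMAP (0.60) was called higher and the 7 others were not called. SLMAP, the subunit that links the complex to these kinases, was at 10.22 at 0 h, between 10.07 and 10.20 with miR-16, and between 9.48 and 9.81 with miR-CTR. It was thus another gene at its 0 h level with miR-16 and below it with miR-CTR. BTRC, the ubiquitin ligase subunit that binds phosphorylated YAP and TAZ, was the only one of 10 turnover factors called in the late window (-0.82). It was at 9.72 at 0 h, between 9.01 and 9.31 with miR-16, and between 9.76 and 9.97 with miR-CTR, so that here it was the miR-16 libraries that departed.

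Among 10 junction and scaffold partners with a value, among 4 other TEAD and VGLL genes, and for NOV and WISP2 of the CCN family, no gene was called in the late window. The 4 TEAD and VGLL genes had positive values short of the threshold, between 0.16 and 0.39. In all, 5 of the 50 regulators outside the 10 genes were past the threshold, where 13.5% of all genes were, and their median late logFC was -0.03. The share over all genes includes weakly expressed genes. Outside the 25% of genes with the lowest mean value, 976 of 11129 were past the threshold.

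**Figure D3:**
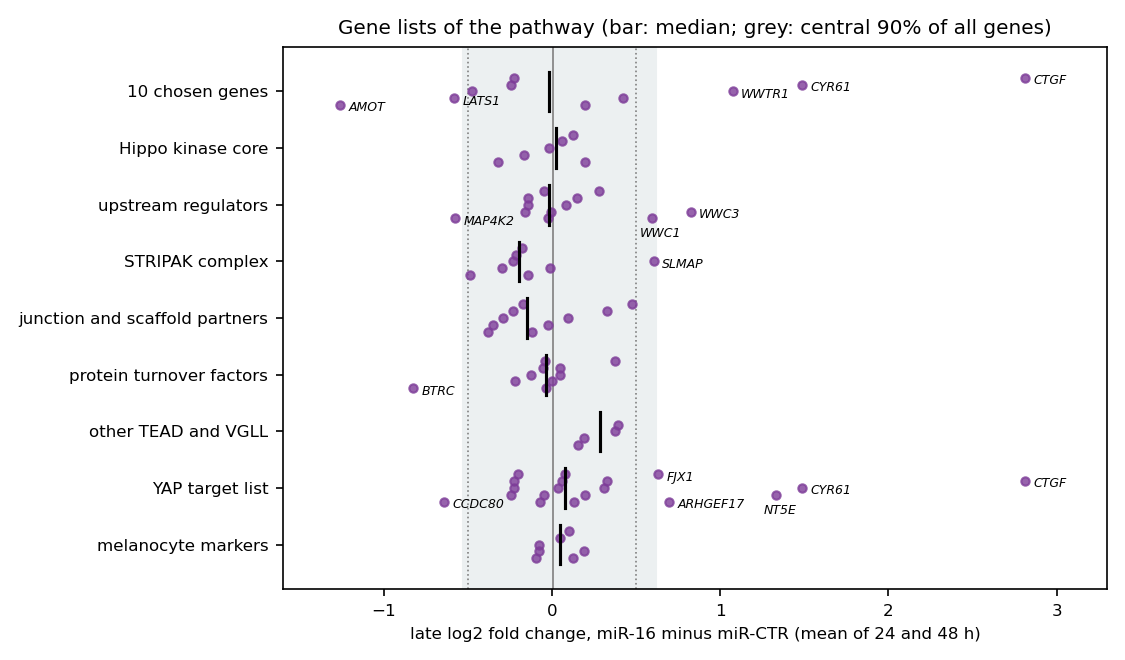
Late logFC (horizontal axis, log2, miR-16 minus miR-CTR, mean of 24 and 48 h) of the genes of each list, with 1 point per gene, a black bar at the list's median, names for the genes past 0.5, and grey shading over the central 90% of all genes (-0.53 to 0.62). The medians of the lists of regulators lie between -0.20 (STRIPAK) and 0.28 (other TEAD and VGLL genes). The points far from the shading are AMOT, WWTR1, CYR61, CTGF, and NT5E.

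Of 19 genes with a value in a list of 22 known targets, 5 were called higher in the late window (CTGF, CYR61, NT5E, ARHGEF17, and FJX1), CCDC80 was called lower, and 13 were not called. AMOTL2 and LATS2 belong to this list as well as to the 10 genes. Outside the 10 genes the list had 15 genes, of which 4 were past the threshold (26.7%, against 13.5% of all genes), and their median late logFC was 0.06. Here too the share over all genes includes weakly expressed ones, without which it was 976 of 11129.

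NT5E, the surface enzyme CD73 that produces adenosine, had the largest value of these 15 genes. It was at 8.47 at 0 h, at 8.51, 8.74, 8.63, and 9.55 with miR-16, and at 8.42, 8.34, 7.78, and 7.74 with miR-CTR, which gave a late logFC of 1.33 (counting interval 1.17 to 1.49). Like WWTR1 in the late libraries, it was above 0 h with miR-16 and below it with miR-CTR. ARHGEF17 had 0.70, and FJX1, a relative of the fly gene four-jointed, had 0.63. CCDC80, a secreted matrix protein, had -0.64.

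With miR-CTR, 9 of the 19 targets were called lower than at 0 h and 2 higher, where 9.79% of all genes were called lower and 11.0% higher. The 9 were CTGF, CYR61, AMOTL2, and LATS2 of the 10 chosen genes, and MYOF, CRIM1, FJX1, NT5E, and DOCK5. With miR-16, 5 were called lower and 3 higher, against 11.7% and 14.1% of all genes. The median late change of the 19 from 0 h was -0.50 with miR-CTR and -0.18 with miR-16. CTGF, whose swing between the mimics chose the set, is among the 19, so nothing is read from these counts and medians. The 5 called lower with miR-16 were CYR61, MYOF, CRIM1, DOCK5, and LATS2, and these were called lower with miR-CTR too. RBMS3 exceeded its 0 h value by 1.61 (miR-16) and 1.84 (miR-CTR), so its late values differed more from 0 h than between the mimics.

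**Figure D4:**
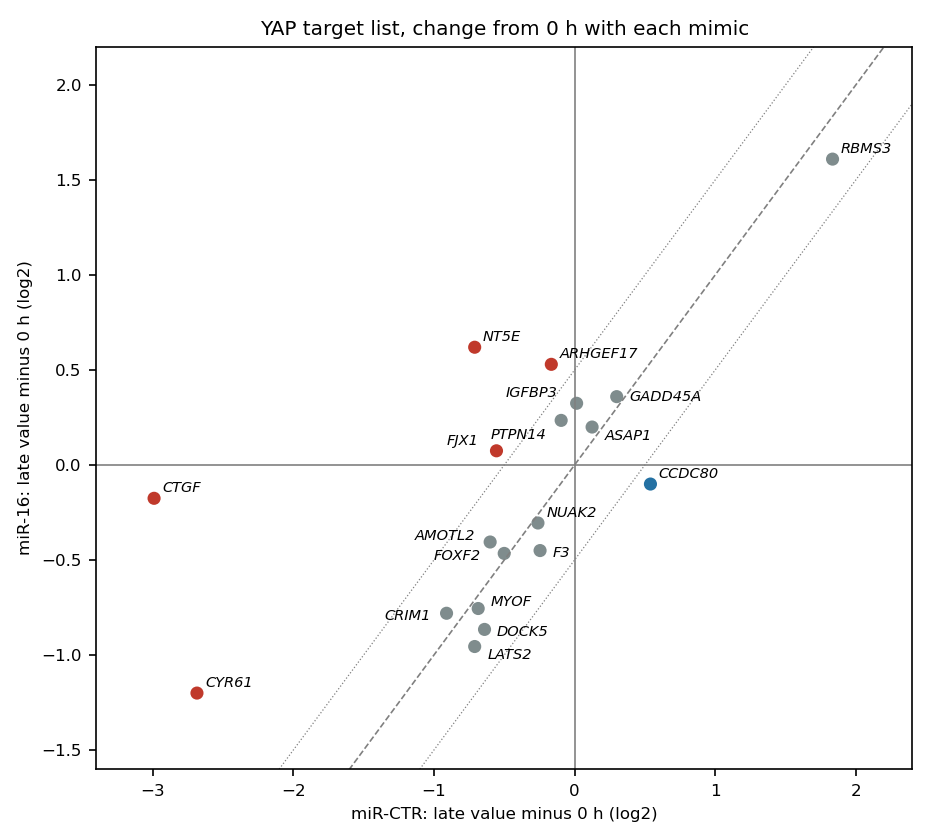
Late change from the 0 h library with miR-CTR (horizontal axis, log2) and with miR-16 (vertical axis, log2) for the 19 YAP targets with a value. The dashed line marks equal change, dotted lines a difference of 0.5 between the mimics, red points genes called higher and blue genes called lower with miR-16. CTGF (-2.99 and -0.18) and CYR61 (-2.68 and -1.20) stand far left of the other targets, most of which lie near the dashed line.

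The genes whose course over the 8 transfected libraries, relative to 0 h, was nearest to that of AMOT among 11128 genes were ANKRD52, TACC1, TNFSF9, KLHDC8B, and IPPK, with root mean square differences of 0.07, 0.08, 0.12, 0.15, and 0.17 in log2. Their late logFC lay between -1.26 and -0.86. Of the other chosen genes LATS1 came nearest to AMOT (0.37), and AMOTL1 (0.51) and AMOTL2 (0.60) were farther away than YAP1 (0.43). The nearest to CTGF was CYR61 (0.60), followed by SLC16A6 (0.72), TNFRSF12A (0.75), SLC6A17 (0.79), and MICAL2 (0.80). No gene was as near to CTGF as the 5 genes named were to AMOT. These measures share the 0 h library and describe the course of single libraries.

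The 7 melanocyte markers looked for (MITF, PMEL, MLANA, TYR, DCT, TYRP1, and SOX10) were all in the table, between 12.29 and 17.88 at 0 h, and their late logFC lay between -0.10 and 0.19. None of 4 epithelial, 4 endothelial, and 4 leukocyte markers was among the 14839 genes analysed here. Of 6 fibroblast markers 3 had a value, COL1A1 (8.31 at 0 h), LUM (6.94), and PDGFRB (4.75), with late logFC of 0.04, -0.81, and 1.80. PDGFRB and LUM thus differed between the mimics in opposite directions at low to moderate levels, and their part in the results was not tested.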

How the data were processed

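The authors deposited 1 table of normalized log2 values, with 2 decimals, for 14839 genes in 9 libraries of polyA RNA from MP41 cells. The submitters' processing notes name FastQC, STAR 2.4.0a, and featureCounts of Subread 1.5.0-p3, and the genome hg38 (GRCh38). The normalization, the annotation, the strand setting, and the filter on weakly expressed genes were not given in the sources used here. The table's columns carry a mimic and a time number, which was taken to run in the order of the collection times. The time numbers skip a value, and no label states which hour each stands for. After 1 was subtracted on the linear scale, 100% of the low values were whole multiples of a step of the library, between 0.853 and 1.1487 (tolerance 0.0036 of the value plus 1), and dividing by the step gave reads. The recovered reads served for counting errors only. The depth, 20280000 to 27370000 reads per library, sets the counting error only.

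Values were subtracted without further normalization, and with 1 library per condition no test was run. The genes and lists were chosen with earlier results of these data known. Named are the 10 genes, from each list the genes past 0.5 in the late window with the same sign at 24 and 48 h (at most 10, largest first), and the 5 genes nearest to AMOT and to CTGF outside the lowest 25% of expression. SLMAP and BTRC fall under this rule, and MYOF, CRIM1, DOCK5, and RBMS3 were named after their values were seen. Gene positions and 3′UTRs are from GENCODE version 29 on GRCh38, matched by symbol for 13002 of the 14839 genes (87.6%). Promoters are from RefSeq on GRCh38.p14. Python 3.11.15, pandas 2.3.3, numpy 2.4.6, and matplotlib 3.10.9 were used. The calling of genes was tested on simulated reads, with planted changes of 1 in log2 and little variation added between libraries. That simulation does not show how far repeated cultures would differ. The alternatives were a threshold of 1, a pseudocount of 16, quantile normalization, centering, leaving out the 25% of genes with the lowest mean value, the 0 h reference, single times, both times, and other definitions of the sites and motif. The single early times and the call at both early times were added after seeing the data.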

Additional observations from a re-analysis of the deposited data

Results flagged for a closer look

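Among the 10 chosen genes, the genes named by rule, and 4 further YAP targets, 34 in all, 3 lay on opposite sides of their 0 h value in the libraries of the 2 mimics at all times. Of all 14839 genes, 175 did so (1.18%). Most of the 34 genes were picked for a difference between the mimics, so nothing is read from their number. BTRC was below 0 h in the 4 miR-16 libraries and above it in the 4 miR-CTR libraries, with a late logFC of -0.825. The same held for TACC1, with a late logFC of -1.195. NT5E was above 0 h in the miR-16 libraries and below it in the miR-CTR libraries, with a late logFC of 1.33. Both mimics were set against the same untransfected library, and the differences were not tested. At some times they were small, as for NT5E at 6 h with 8.51 and 8.42 beside 8.47 at 0 h. None of the 10 chosen genes was among the 3.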

How the results depend on the processing

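The count of 5 of the 10 genes past 0.5 in the late window was 5 under quantile normalization, centering, a pseudocount of 16, the filter on low expression, 24 h or 48 h alone, and the call at both times, and 4 with a threshold of 1. With the 0 h library as the reference it was also 5, but with 1 higher and 4 lower instead of 3 and 2. This setting sets miR-16 against 0 h and leaves miR-CTR out. CTGF (-0.175) and CYR61 (-1.2) were negative in it, which is another contrast and no reversal of the difference between the mimics. AMOT stayed between -1.27 and -1.17 over these settings. AMOTL2 changed sign at 24 h alone (-0.02), and TEAD1 was negative against 0 h (-0.39). The count in the early window was 1 instead of 2 at 6 h alone, at both early times, and against 0 h, and 0 with a threshold of 1. With a threshold of 1 the 5 changes from 0 h with each mimic became 2.

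Counts of the lists moved most against 0 h, with 5 instead of 0 junction partners and 1 instead of 0 in the kinase core, the other TEAD and VGLL genes, and the CCN genes. With a threshold of 1 the upstream regulators, STRIPAK, and turnover lists had 0 (3, 1, and 1 at 0.5) and the YAP targets 3 instead of 6. At 24 h alone and at both times the upstream regulators had 1, at 24 h alone the junction partners had 1, and at 48 h alone the CCN genes had 1. Of all genes, 2002 were past 0.5 in the late window, 3831 against 0 h, 238 with a threshold of 1, 1010 at both times, and 976 without the lowest 25% of expression, of which 441 were higher and 535 lower (1151 and 851 without the filter). The other 91 of 113 pairs of a count and an alternative stayed within 1.5 times. This compares totals and not directions. Against 0 h, STRIPAK had 1 gene lower instead of 1 higher. The upstream regulators had 0 higher and 2 lower instead of 2 and 1, and the YAP targets 3 and 5 instead of 5 and 1. Counting matches of 6 bases gave 7 genes with a miR-16 match instead of 6, and the shorter motif GGAAT gave 4 promoters, as GGAATG did. No paired analysis was possible because the conditions share fewer than 2 replicate numbers and no test was run. Each logFC already sets the mimics against each other at the same time, and the times are not replicates. What causes these differences was not tested, and depth limits the late miR-CTR values of CTGF and CYR61 (151 and 144 reads at 48 h) and genes of low value such as PDGFRB.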
